A study of Mus musculus with 9 samples.

Results

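Muscle cells sense stretch partly at the sarcomere, where a small set of proteins binds titin, the Z-disc or the cell's end junctions and can also act in the nucleus. Ankrd1, Ankrd2 and Ankrd23 encode the muscle ankyrin repeat proteins, which bind the spring region of titin. Csrp3 (muscle LIM protein), Fhl1 and Fhl2 encode LIM-domain proteins of the Z-disc and titin spring. Xirp1 and Xirp2 (the Xin proteins) and Nrap encode actin-binding proteins of the intercalated disc, the junction that couples heart muscle cells. Ankrd1 in particular is known as a transcript that rises in heart muscle under load.

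These 9 genes were chosen by name, with earlier results of these data known, and their levels described in left ventricle of mice. The files held 49671 gene identifiers, of which 15261 passed the filter on low counts and were tested, all 9 listed genes among them. Polyadenylated RNA was counted per gene in 9 libraries: 2 from wild-type (WT) mice given vehicle, 2 from WT mice given ifetroban, 2 from dSG knockout mutant (KO) mice given vehicle and 3 from KO mice given ifetroban. dSG is delta-sarcoglycan, the product of Sgcd, a protein of the complex that ties the muscle membrane to the matrix; its loss causes cardiomyopathy in mice. Ifetroban blocks the thromboxane-prostanoid receptor. The strain, age, dose and length of treatment, and whether each library came from a separate mouse, are not given in the sources used here. The p-values therefore reflect how far these libraries spread, which may be technical. The comparisons ask what loss of delta-sarcoglycan and what ifetroban change in the ventricle.

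Libraries held 21299748 to 31394548 reads in genes. Sgcd was at 7.49 to 18.5 CPM (the usual depth-scaled count, here with normalized library sizes) in the 5 KO libraries and at 28.9 to 33.1 in 3 WT libraries. The library labelled WT vehicle replicate 1 held 11.1, inside the KO range, so Sgcd went against its label. Which part of Sgcd the knockout lacks is not given in the labels, so reads outside it would remain. Counts fell with transcript length, relative to the mean library, in the library so labelled, in both KO vehicle libraries and in KO ifetroban replicate 1, and rose with length in the other 5. Where counts fell with length, Sgcd was at 7.49 to 12.1 CPM in the KO libraries, so it did not separate the genotypes there. In the library labelled WT vehicle replicate 1, Ankrd1 (949 CPM) and the summed fibroblast (954) and macrophage markers (352) lay below every KO library. Csrp3 (1952 CPM) lay inside the KO range there. Whether that label is right was not tested. KO vehicle replicate 1 stood apart on the first principal component, at 84.4 against -38.2 to 34.2 in the other 8. The 11 cardiomyocyte markers were detected in every library. Of the 6 atrial markers, Myl7, Sln and Bmp10 stayed at or below 0.327, 0.103 and 0.280 CPM, and Myl4 was at 1.23 to 2.29. The other atrial markers were higher, Nr2f2 at 15.6 to 19.5 CPM and Dkk3 at 2.21 to 17.2.

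The promoters of the ankyrin repeat and FHL genes are shown here because these genes include the strongest rise and the opposite estimate within the set. Each line gives the 250 bases before a RefSeq transcript start on GRCm38.p6, read 5′ to 3′ along the gene. The windows are chr19:36119845-36120094 (minus strand) for Ankrd1, chr19:42035777-42036026 (plus) for Ankrd2 and chr1:36535740-36535989 (minus) for the second listed start of Ankrd23. Those of the FHL genes are chrX:56779433-56779682 (plus) for the first listed start of Fhl1 and chr1:43163962-43164211 (minus) for the second listed start of Fhl2. Capitals mark matches to the TEAD M-CAT element CATTCC, the TATA sequence TATAAA or the SRF-binding CArG box, each sought on both strands. Each start printed has a match. The windows printed for Ankrd1, Ankrd23, Fhl1 and Fhl2 lie inside the gene spans given below. Which start is used in the ventricle was not tested. The other listed starts, not printed, had none for Ankrd23 and Fhl1, and a CArG box and a TATA sequence for Fhl2.
Ankrd1: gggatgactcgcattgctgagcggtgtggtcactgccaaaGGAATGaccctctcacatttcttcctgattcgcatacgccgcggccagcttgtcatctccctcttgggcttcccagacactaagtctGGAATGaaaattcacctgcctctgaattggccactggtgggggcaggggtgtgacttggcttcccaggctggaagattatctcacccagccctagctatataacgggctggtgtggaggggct
Ankrd2: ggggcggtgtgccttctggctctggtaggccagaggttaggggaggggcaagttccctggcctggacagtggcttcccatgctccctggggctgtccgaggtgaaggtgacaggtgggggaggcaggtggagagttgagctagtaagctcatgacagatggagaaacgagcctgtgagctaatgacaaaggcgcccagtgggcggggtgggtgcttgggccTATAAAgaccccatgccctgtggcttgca
Ankrd23: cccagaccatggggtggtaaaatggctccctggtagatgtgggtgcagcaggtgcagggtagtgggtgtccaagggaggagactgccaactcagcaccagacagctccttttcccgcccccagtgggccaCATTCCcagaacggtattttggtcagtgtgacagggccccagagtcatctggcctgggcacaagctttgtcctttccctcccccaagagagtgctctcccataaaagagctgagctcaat
Fhl1: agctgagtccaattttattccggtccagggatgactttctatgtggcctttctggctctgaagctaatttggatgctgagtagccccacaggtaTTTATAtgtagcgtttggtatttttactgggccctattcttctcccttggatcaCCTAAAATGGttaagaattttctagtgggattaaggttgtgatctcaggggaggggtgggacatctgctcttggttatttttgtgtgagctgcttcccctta
Fhl2: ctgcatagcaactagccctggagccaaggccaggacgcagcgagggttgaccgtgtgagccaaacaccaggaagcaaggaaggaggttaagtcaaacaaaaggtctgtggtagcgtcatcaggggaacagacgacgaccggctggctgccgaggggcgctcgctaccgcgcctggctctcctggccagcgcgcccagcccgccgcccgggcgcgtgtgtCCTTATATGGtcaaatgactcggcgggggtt

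RefSeq windows were found for 8 of the 9 genes, 12 windows in all, and Xirp1 had none. The M-CAT element, bound by the TEAD factors of the YAP pathway, was in 2 of 12 windows, those of Ankrd1 and Ankrd23, against 12.6% of all 32851 windows of the same length. Ankrd1 had 2 matches, starting 210 and 123 bases before the start (first bases at -210 and -123). The CArG box was in 3 of 12 windows, 1 of Fhl1 and 2 of Fhl2, against 1.47% of all windows. TATAAA was in 3 windows (12.4% of all) and the AP-1 sequence TGANTCA in 1, that of Xirp2 (6.75% of all). No match overlapped another motif's match, and a match is a description of letters, not a bound site.

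Ankrd1 was the only gene of the set whose rise in the knockout, averaged over treatments, was called by edgeR. Ankrd1 (ENSMUSG00000024803, chromosome 19, 36111961 to 36120099, minus strand, GRCm38) was at 949 CPM in the library labelled WT vehicle replicate 1 and 713 in WT vehicle replicate 2, and at 898 and 752 in the WT ifetroban libraries. KO vehicle libraries held 6194 and 2865 CPM, and KO ifetroban libraries 2911, 2331 and 2226. All 5 KO libraries lay above all 4 WT libraries, and KO vehicle replicate 1 was the highest. Averaged over both treatments the level rose by a log2 fold change of 2.02 ± 0.231 (SE; edgeR quasi-likelihood test, Benjamini-Hochberg adjusted p = 0.0142), which is 4.06-fold. By p, Ankrd1 ranked 7 among 15261 genes.

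It was the only 1 of the 9 genes called in this averaged comparison, in which 0.505% of all tested genes were called higher. Its CPM values were also the only ones of the set without overlap between KO and WT, which 5.03% of all genes showed in the same direction. The knockout effect was 1.97 within the 4 libraries whose counts fell with length, which hold only 1 WT library, and 1.54 within the other 5, without overlap in either. Without KO vehicle replicate 1 the rise was 1.69 (adjusted p = 0.00650), and it was 1.80 (adjusted p = 0.00554) when WT vehicle replicate 1, as labelled, was left out too. Leaving out KO vehicle replicate 2 gave 6 calls among the 9 genes and 2098 among all genes, and leaving out any 1 WT library gave 0 among the 9 and 2 to 3 among all. DESeq2 called 2 of the 9, Ankrd1 and Ankrd2, against 4.21% of all genes called higher. The call was lost, at log2 fold changes of 1.86 to 2.11, when the length trend entered the fit as a class (adjusted p = 0.0569) or without WT vehicle replicate 1 (0.0958), WT vehicle replicate 2 (0.105), WT ifetroban replicate 1 (0.0694), WT ifetroban replicate 2 (0.134) or KO ifetroban replicate 2 (0.0588).

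**Figure D1:**
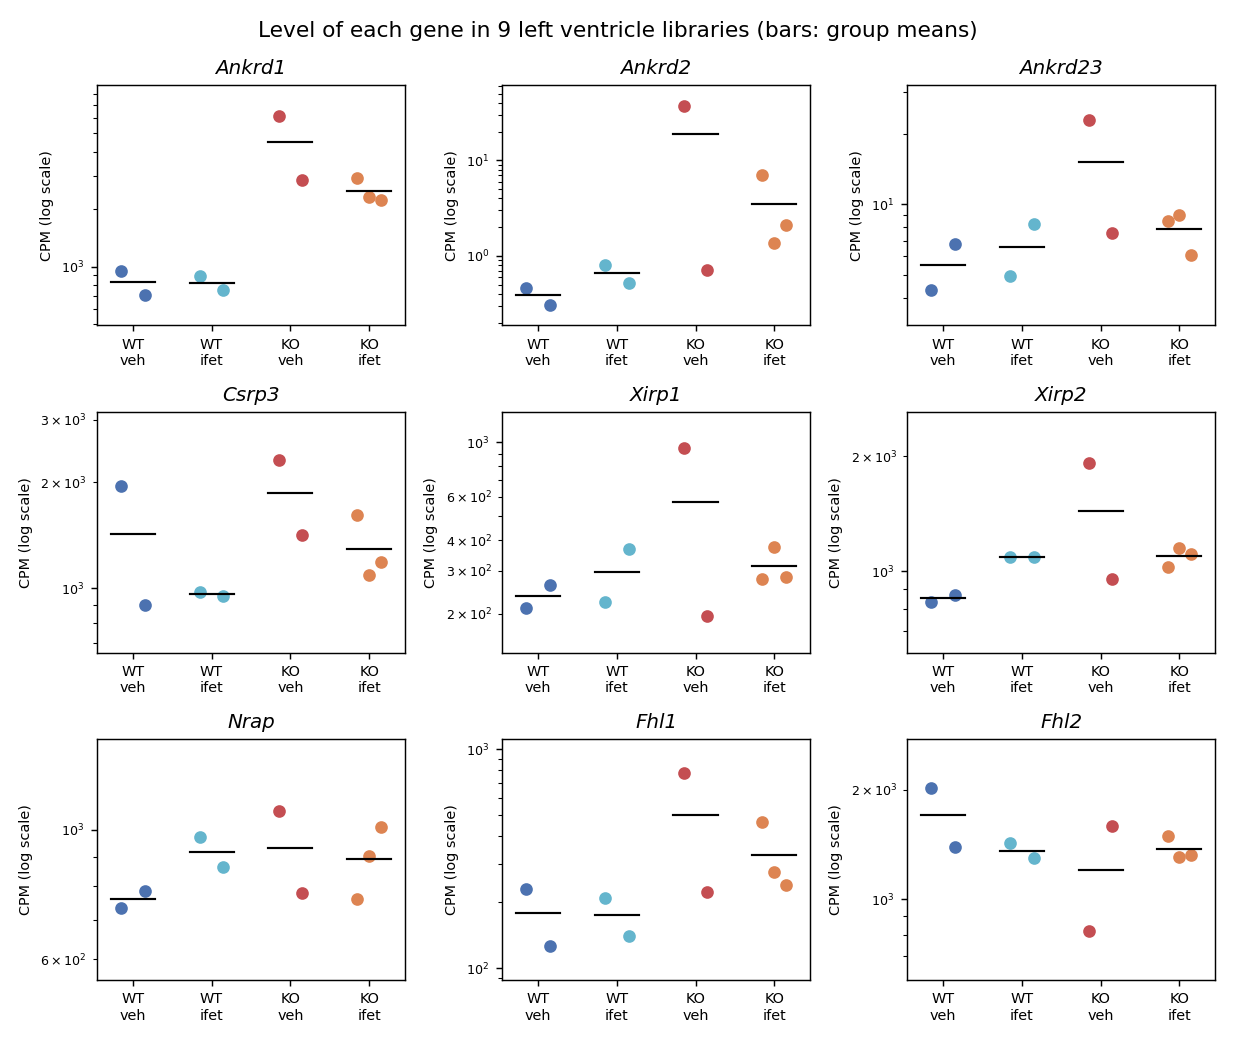
CPM on a log axis for each gene, with 1 point per library in the 4 groups of genotype (WT, KO) and treatment (veh, vehicle; ifet, ifetroban) and a bar at each group mean. Ankrd1 is the gene whose 5 KO points, 2226 to 6194 CPM, all sit above its 4 WT points, 713 to 949 CPM.

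**Figure D2:**
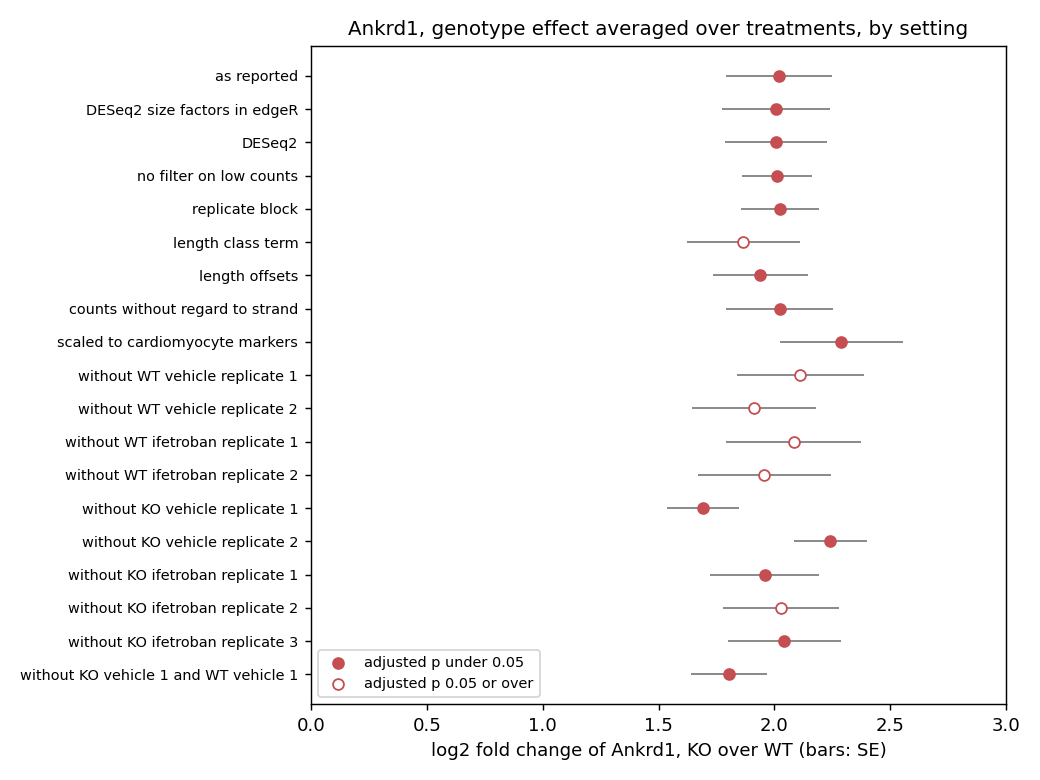
Log2 fold change of Ankrd1 in KO over WT, averaged over treatments, in edgeR unless DESeq2 is named, under each analysis setting, with bars of 1 SE. Filled points have an adjusted p under 0.05. The estimate lies between 1.69 and 2.29 in every setting shown, and 6 alternatives lose the call.

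The other ankyrin repeat genes were far less abundant. Ankrd2 (ENSMUSG00000025172, chromosome 19, 42036000 to 42045110, plus strand) had 9 reads in the library labelled WT vehicle replicate 1, 8 in WT vehicle replicate 2, and 21 and 13 in WT ifetroban, which is 0.309 to 0.805 CPM. It had 803 reads (37.4 CPM) in KO vehicle replicate 1 but 18 (0.715 CPM) in KO vehicle replicate 2, and 150, 45 and 54 reads (7.01, 1.38 and 2.09 CPM) in KO ifetroban. Each KO ifetroban library lay above every WT library, whereas KO vehicle replicate 2 lay within the WT range. The averaged log2 fold change of 3.999 ± 1.04 (SE) did not pass the test (edgeR adjusted p = 0.115; DESeq2 adjusted p = 0.00506), and without KO vehicle replicate 1 it was 1.64. Ankrd2 is known mainly from skeletal muscle, so the 14 skeletal muscle markers are given beside it. Their summed level was 47.5 CPM in KO vehicle replicate 1, 75.9 in KO ifetroban replicate 3, 26.0 to 29.3 in the other 3 KO libraries and 17.9 to 24.8 in WT. In KO vehicle replicate 1, 43.3 CPM of that sum was Mybpc2, a fast-muscle myosin-binding protein, 2.09 was Tnni2, fast troponin I, and 6 of the 14 markers, Myh2 and Myh4 among them, were at 0. KO ifetroban replicate 3 held 26.4 CPM of Mybpc2, 9.58 of Myh1 and 3.96 of Myh4. The part of skeletal muscle RNA in the Ankrd2 values was not tested.

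Ankrd23 (ENSMUSG00000067653, chromosome 1, 36530188 to 36536883, minus strand) was counted over only part of its length. Of its exonic bases 78.2% are shared on the same strand with the annotated gene Gm42417, whose count was 0 in every library, and reads in shared bases are ambiguous and go to neither gene. Over the remaining 588 bases it had 4.31 and 6.76 CPM in WT vehicle, the first in the library labelled replicate 1, and 4.95 and 8.24 in WT ifetroban. Levels in KO vehicle were 22.8 and 7.58 CPM and in KO ifetroban 8.51, 9.02 and 6.09. The value of 22.8 stood alone, 8.51 and 9.02 lay just above the highest WT library, and 7.58 and 6.09 lay within the WT range. Averaged over treatments, the log2 fold change was 0.85 ± 0.327 (edgeR adjusted p = 0.246).

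In the averaged comparison none of the 3 LIM genes passed edgeR's test, with estimates above 0 for Fhl1 and Csrp3 and below 0 for Fhl2; DESeq2 called none of them either. Fhl1 (ENSMUSG00000023092, chromosome X, 56731787 to 56793346, plus strand) was at 231 and 126 CPM in WT vehicle, the first in the library labelled replicate 1, and at 208 and 140 in WT ifetroban. On vehicle the KO libraries held 779 and 223 CPM and on ifetroban 467, 276 and 239. Only KO vehicle replicate 2 fell inside the WT range. The averaged log2 fold change was 1.201 ± 0.374 (edgeR adjusted p = 0.174), and 0.62 without KO vehicle replicate 1. When KO vehicle replicate 2 was left out instead, Fhl1 was called, at 1.52 (edgeR adjusted p = 0.0111).

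Csrp3 (ENSMUSG00000030470, chromosome 7, 48830398 to 48848033, minus strand), whose loss causes dilated cardiomyopathy in mice, was at 1952 CPM in the library labelled WT vehicle replicate 1 and at 898, 976 and 950 in the other WT libraries. KO vehicle libraries held 2313 and 1414 CPM and KO ifetroban libraries 1609, 1089 and 1189. Every KO library exceeded the other 3 WT libraries, but 4 of 5 lay below the library labelled WT vehicle replicate 1. The averaged log2 fold change was 0.41 ± 0.244 (edgeR adjusted p = 0.416), and 0.72 without that library, the only WT library whose counts fell with length. Csrp3 was at 1414 to 2313 CPM in the libraries whose counts fell with length and at 898 to 1189 in the others. KO minus WT in log2 CPM was -0.17 within the former, with overlap, and 0.27 within the latter, without overlap. With the length trend as a class in the fit, the vehicle estimate was 0.098 instead of 0.39.

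Fhl2 (ENSMUSG00000008136, chromosome 1, 43123074 to 43196984, minus strand), a LIM-only cofactor of the Z-disc and nucleus, was at 2027 and 1390 CPM in WT vehicle, the first in the library labelled replicate 1, and at 1428 and 1298 in WT ifetroban. In KO it was at 818 and 1594 CPM on vehicle and at 1494, 1312 and 1322 on ifetroban. KO vehicle replicate 1 was the lowest of all, and the other 4 KO libraries lay inside the WT range. Its estimate averaged over treatments was -0.24 ± 0.198 (edgeR adjusted p = 0.549).

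None of the 3 intercalated disc genes passed the test, and their highest values were all in KO vehicle replicate 1. Xirp1 (ENSMUSG00000079243, chromosome 9, 120013755 to 120023598, minus strand) was at 212 and 261 CPM in WT vehicle, the first in the library labelled replicate 1, and at 223 and 367 in WT ifetroban. KO vehicle libraries held 946 and 196 CPM, the highest and the lowest of the 9, and KO ifetroban libraries 278, 376 and 283. The averaged log2 fold change was 0.68 ± 0.380 (edgeR adjusted p = 0.392), and -0.095 without KO vehicle replicate 1. The macrophage gene Cx3cr1 overlaps its span on the same strand, but the pair share 0 exonic bases.

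Xirp2 (ENSMUSG00000027022, chromosome 2, 67446002 to 67526614, plus strand) was at 833 and 870 CPM in WT vehicle, the first in the library labelled replicate 1, and at 1091 and 1088 in WT ifetroban. In KO it was at 1922 and 958 CPM on vehicle, and on ifetroban at 1025, 1155 and 1113. Apart from 1922, the values spanned a narrow range in which KO and WT overlapped. Averaged over treatments, the log2 fold change was 0.38 ± 0.184 (edgeR adjusted p = 0.329).

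Nrap (ENSMUSG00000049134, chromosome 19, 56320035 to 56390037, minus strand) was at 734 and 787 CPM in WT vehicle, the first in the library labelled replicate 1, and at 971 and 864 in WT ifetroban. KO vehicle libraries held 1078 and 780 CPM and KO ifetroban libraries 761, 903 and 1012. The KO and WT ranges overlapped, with an averaged log2 fold change of 0.12 ± 0.139 (edgeR adjusted p = 0.670). Taking the set as a list, 8 of 9 had a positive averaged log2 fold change, against 49.5% of all tested genes, with a median of 0.68 against -0.0036 over all genes. Without KO vehicle replicate 1 the count was 6 and the median 0.21. At an unadjusted p under 0.05, 4 of 9 were higher (10.6% of all genes), namely Ankrd1, Ankrd2, Ankrd23 and Fhl1. Because the set was chosen with earlier results of these data known, such counts describe it and are no independent support.

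**Figure D3:**
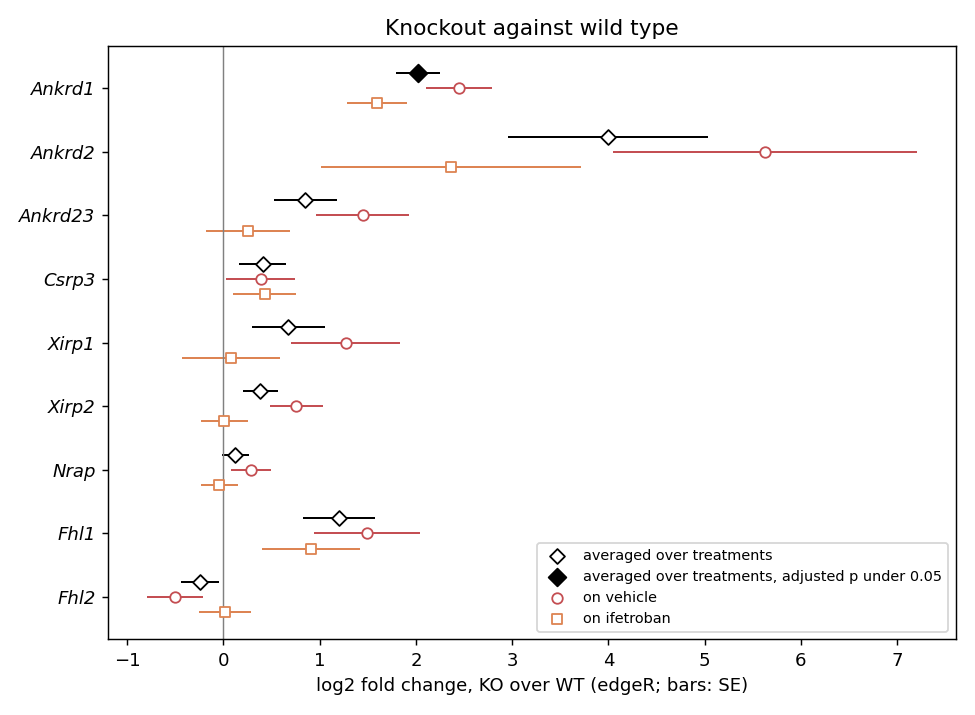
Log2 fold change of KO over WT from edgeR, averaged over treatments (diamonds), on vehicle (circles) and on ifetroban (squares), with bars of 1 SE. The filled diamond of Ankrd1 at 2.02 is the only value with an adjusted p under 0.05. Ankrd2 has the largest estimates and the widest bars, and Fhl2 lies below 0 on vehicle.

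**Figure D4:**
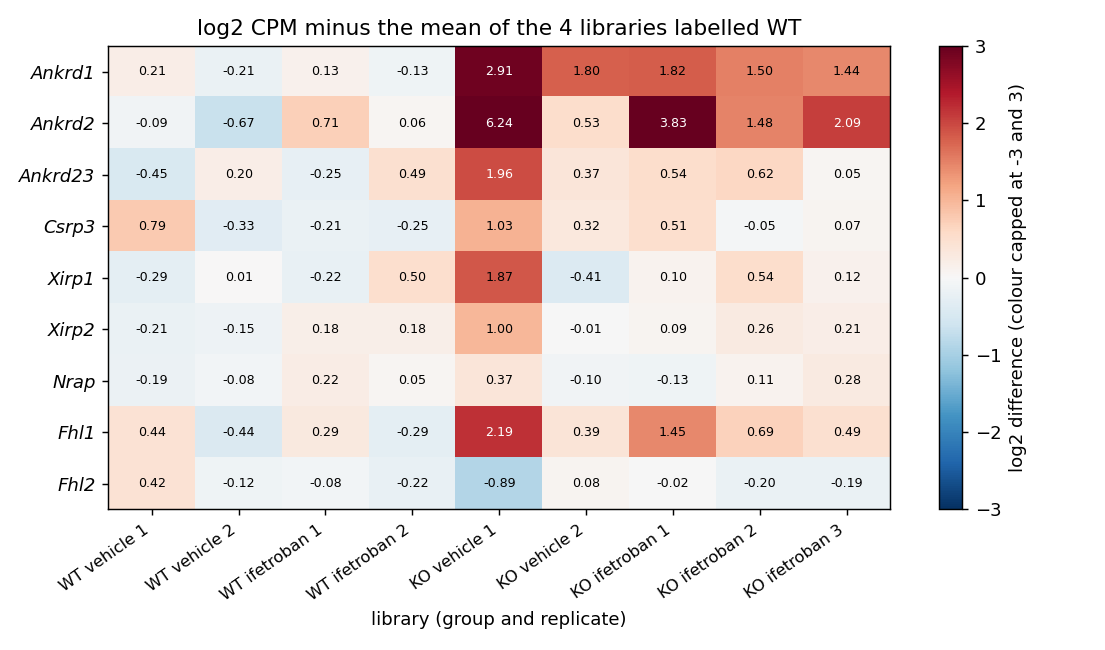
Log2 CPM of each gene in each library minus its mean over the 4 libraries labelled WT, with colours capped at -3 and 3. In KO vehicle replicate 1 the values run from -0.89 for Fhl2 to 6.24 for Ankrd2, and Ankrd1 is between 1.44 and 2.91 in all 5 KO libraries.

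A single library held the extreme value of every gene in the set. KO vehicle replicate 1 was the highest of the 9 libraries for 8 genes and the lowest for Fhl2, while over all tested genes it was the highest for 26.9% and the lowest for 26.6%. Within KO vehicle, the ratio of the higher to the lower library was 52.3 for Ankrd2, 4.83 for Xirp1, 3.49 for Fhl1, 3.01 for Ankrd23, 2.16 for Ankrd1, 2.01 for Xirp2, 1.95 for Fhl2, 1.64 for Csrp3 and 1.38 for Nrap. In WT vehicle the ratio was larger than that for Csrp3, at 2.17, and was 1.83 for Fhl1, 1.57 for Ankrd23 and 1.05 to 1.49 for the other 6. In WT ifetroban the corresponding ratios ran from 1.002 for Xirp2 to 1.67 for Ankrd23. Ratios within KO ifetroban reached 5.08 for Ankrd2 and 1.95 for Fhl1 and were at most 1.48 for the other 7.

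On vehicle alone, KO against WT, 0 of the 9 genes passed edgeR's test (0.0524% of all genes did), and 6 were higher at an unadjusted p under 0.05 (8.26% of all genes). DESeq2 called 2, Ankrd1 and Ankrd2 (2.13% of all genes higher by DESeq2). The log2 fold change was 2.45 ± 0.340 for Ankrd1 (edgeR adjusted p = 0.0601), 5.63 ± 1.58 for Ankrd2, 1.45 ± 0.484 for Ankrd23 and 1.49 ± 0.551 for Fhl1. It was 1.27 ± 0.564 for Xirp1, 0.76 ± 0.272 for Xirp2, 0.39 ± 0.359 for Csrp3, 0.29 ± 0.206 for Nrap and -0.50 ± 0.294 for Fhl2. CPM values did not overlap for 4 genes, Ankrd1, Ankrd2, Ankrd23 and Xirp2, all higher in KO, as for 16.8% of all genes. Estimates were positive for 8 of 9, against 48.5% of all genes. Without KO vehicle replicate 1, which leaves 1 library in that group, Ankrd1 was at 1.79 (adjusted p = 0.0893), Ankrd2 at 0.91 and Xirp1 at -0.27, and the median of the 9 was 0.17 instead of 1.27. Without KO vehicle replicate 2 edgeR called 7 of the 9, and 1734 of all 15957 genes tested.

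Under ifetroban, KO against WT, 0 of the 9 genes were called by edgeR (0.0131% of all genes were), 1 was higher at an unadjusted p under 0.05 (3.85% of all genes), and DESeq2 called Ankrd1 (0.419% of all genes higher). Ankrd1 had a log2 fold change of 1.59 ± 0.312 (edgeR adjusted p = 0.543; DESeq2 adjusted p = 0.000463). edgeR called it in a fit of these 2 groups alone, and when either KO vehicle library was left out (adjusted p = 0.0468 and 0.0491). CPM values did not overlap for Ankrd1, Ankrd2 (2.37 ± 1.35), Fhl1 (0.91 ± 0.506) and Csrp3 (0.43 ± 0.331), that is 4 of 9 against 16.1% of all genes. Estimates were positive for 8 of 9, against 51.8% of all genes, and the median over the 9 was 0.26, against 0.012 over all genes. Among the 8, Xirp2 (0.011) and Fhl2 (0.014) lay near 0 and turned negative in DESeq2 (-0.016 and -0.013). With DESeq2, or with its size factors in edgeR, 6 of 9 were positive.

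Ifetroban against vehicle within KO gave 0 called genes of 9, and 0 of all genes, in edgeR (percent called 0). Ankrd1 was at 4530 ± 2354 CPM (SD, n = 2) on vehicle and 2489 ± 369 (n = 3) on ifetroban, with overlapping libraries and a log2 fold change of -0.86 ± 0.291 (edgeR adjusted p = 0.688). At an unadjusted p under 0.05, Ankrd1 and Ankrd2 were lower, 2 of 9 against 2.42% of all genes. DESeq2 called 0 of the 9 (0.0197% of all genes). Of the 9 genes 8 had negative estimates, against 52.4% of all genes, but 3 without KO vehicle replicate 1, where Ankrd1 was at -0.20. Without KO vehicle replicate 2, edgeR called 5 of the 9 and 449 of all genes, with Ankrd1 at -1.31.

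In WT, ifetroban against vehicle gave 0 called genes of 9 in edgeR and in DESeq2, and 0 of all genes (percent called 0). At an unadjusted p under 0.05 there were 0 of 9, against 1.26% of all genes. Ankrd1 was at 831 ± 166 CPM on vehicle and 825 ± 103 on ifetroban (SD, n = 2 each). Ankrd2, Xirp2 and Nrap were higher in both ifetroban libraries than in both vehicle libraries, as were 14.9% of all genes. The interaction of genotype and ifetroban was called for 0 of 9 genes and 0 of all genes by edgeR and DESeq2 (percent called 0), with 0 of 9 at an unadjusted p under 0.05 against 1.38% of all genes. For Ankrd1 it was -0.85 ± 0.436 (edgeR adjusted p = 0.9998), and -0.19 without KO vehicle replicate 1.

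Levels of different genes were compared as CPM per kilobase of exonic length, the length being 588 bases for Ankrd23. In WT vehicle the order was Fhl2 (901 ± 237, SD), Csrp3 (533 ± 279), Ankrd1 (288 ± 57.7), Nrap (138 ± 6.82), Xirp2 (71.1 ± 2.23), Fhl1 (48.1 ± 19.9), Xirp1 (40.5 ± 6.03), Ankrd23 (9.42 ± 2.95) and Ankrd2 (0.339 ± 0.0950), n = 2 each. Only Fhl1 and Xirp1 overlapped among neighbours there. In KO vehicle Ankrd1 stood first at 1569 ± 816, with both libraries above those of Csrp3 (698 ± 238) and Fhl2 (636 ± 289), which overlapped each other, and below Fhl2 each further neighbour from Nrap down to Ankrd2 overlapped the next. In KO ifetroban Ankrd1 was again first at 863 ± 128 (n = 3), but its libraries overlapped those of Fhl2 (725 ± 53.8).

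Some markers of other cells were also higher in KO. In the averaged comparison edgeR called 3 of 9 fibroblast markers (Postn, Col1a1 and Col3a1) and 1 of 9 macrophage markers (Lyz2) higher, against 0.505% of all genes, and did not call the other 14. The summed level of the fibroblast markers was 954 to 1190 CPM in WT and 1409 to 2213 in KO libraries, and that of the macrophage markers 252 to 352 and 525 to 721, with no marker of either list at 0. Summed cardiomyocyte markers were 80889 to 84429 CPM in WT and 61407 to 77265 in KO, lowest in KO vehicle replicate 1. The 11 markers did not fall together. Averaged log2 fold changes were -0.52 for Myh6, -0.59 for Ryr2 and -0.41 for Atp2a2. They were 0.0012 for Actc1, 0.029 for Tnnt2 and 0.12 for Tnnc1. The first 3 also split by the length trend. Where counts fell with length, in KO and WT libraries, Ryr2 was at 880 to 1341 CPM, Myh6 at 11236 to 15972 and Atp2a2 at 8874 to 14141. In the other libraries they were at 2365 to 2612, 19915 to 24445 and 15670 to 17519. The part of the length trend in these estimates was not tested. In bulk tissue fewer cells of a type, less RNA per cell and lower levels of single genes cannot be told apart. With libraries scaled to the cardiomyocyte markers, Ankrd1's averaged rise was 2.29 (edgeR adjusted p = 0.00708), while the median of all genes shifted to 0.24. Endothelial (861 to 1094 in KO, 826 to 1122 in WT) and smooth muscle sums (348 to 584 and 323 to 460) overlapped. Atrial sums were 19.97 to 24.1 CPM in WT and 22.4 to 36.1 in KO, with at most 1 of 6 markers at 0. Most of each atrial sum was Nr2f2 and Dkk3. Dkk3 was higher in KO without overlap (log2 fold change 1.49 ± 0.401, edgeR adjusted p = 0.127), and Nr2f2 was not (-0.021). Skeletal sums were 17.9 to 24.8 CPM in WT and 26.0 to 75.9 in KO, with 2 to 7 of 14 markers at 0. Most of each skeletal sum outside KO ifetroban replicate 3 was Mybpc2, at 22.6 to 43.3 CPM in the 5 KO libraries and 14.0 to 21.8 in WT, without overlap (log2 fold change 0.72 ± 0.197, edgeR adjusted p = 0.132). The part of these cell types in the results was not tested.

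No gene of the wider sets around these genes passed the averaged test, which only 82 of all 15261 genes passed. At so low a share, 0 calls in lists of this size say little about the lists. Of 37 titin and Z-disc partners 36 were tested and 0 were called in the averaged KO comparison, with 10 higher and 3 lower at an unadjusted p under 0.05 and a median of 0.04. The smallest p values were those of Csrp2, a LIM protein related to Csrp3 (0.96 ± 0.214, edgeR adjusted p = 0.0787), Synpo2l, an actin-binding Z-disc protein (1.24 ± 0.297, adjusted p = 0.0919), and Myoz1, a calsarcin of fast muscle (2.68 ± 0.685, adjusted p = 0.108). Of 32 regulators and targets of YAP/TEAD and MRTF/SRF, the main load-responsive transcription pathways, 0 were called, 10 were higher and 0 lower at an unadjusted p under 0.05, and the median was 0.26. They were led by Ccn2, a matricellular YAP target (2.31 ± 0.434, edgeR adjusted p = 0.0580), the receptor gene Axl (0.56 ± 0.141, adjusted p = 0.106) and the actin-binding calponin gene Cnn2 (0.64 ± 0.168, adjusted p = 0.117). These shares stand against 10.6% of all genes higher and 5.94% lower at that threshold. On vehicle the medians of the 2 lists were 0.08 and 0.38, and under ifetroban 0.02 and 0.10. In either, 0 members were called, where 0.0524% and 0.0131% of all genes were.

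Across the 9 libraries, the genes whose log2 CPM followed Ankrd1 most closely were not other members of the set. Among the 11362 protein-coding genes whose log2 CPM averaged 1 or more, the highest Pearson correlations were those of Tgfb2, a TGF-beta ligand (0.993), Arrb2, beta-arrestin 2 (0.988), Vat1 (0.984), Clec5a, a myeloid lectin receptor (0.983), and Fcgr3, an Fc receptor of myeloid cells (0.982). Tgfb2 was at 8.89 to 9.497 CPM in WT libraries, and in KO at 38.5 and 22.2 on vehicle and 25.2, 19.4 and 18.1 on ifetroban. Fhl1 was the closest ranked member, at 0.878 and rank 432, followed by Ankrd23 (0.733), Xirp2 (0.690), Csrp3 (0.661), Xirp1 (0.562), Nrap (0.388) and Fhl2 (-0.545); Ankrd2, below that level, had 0.857. After each library's group mean was subtracted, the correlation with Ankrd1 was 0.989 for Arrb2, 0.949 for Clec5a, 0.931 for Tgfb2 and for Fcgr3, and 0.863 for Vat1. Among the members it was 0.986 for Fhl1, 0.952 for Ankrd2 and -0.50 to 0.80 for the other 6. Within the set the closest pairs were Ankrd2 with Fhl1 (0.951) and Xirp1 with Xirp2 (0.917), and Fhl2 ran opposite to Xirp2 (-0.926) and Xirp1 (-0.913). These correlations describe 9 points that share their libraries, of which KO vehicle replicate 1 lies far from the rest. After the group mean is subtracted, the values of a group of 2 libraries are exact opposites. The correlations taken after that step therefore rest on fewer than 9 independent points.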

How the data were processed

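The tools named, per the submitters' processing notes, are STAR 2.5.2b and HTSeq, and the build is GRCm38; the annotation release is not given in the sources used here. The authors deposited unnormalized counts, 1 file a library, in STAR's layout of 3 count columns. Rows that name no gene held 26.6% to 31.9% of reads and were left out. The reverse-strand column, with 14.5 times the counts of the forward column, was used; it separates antisense partners such as Habp2 and Nrap. Symbols, coordinates (counted from 1) and exonic lengths came from GENCODE M21 on GRCm38, which matched 49412 identifiers. Libraries within groups differed by more than sampling noise (chi-square per degree of freedom 15.0 to 92.8 over 6 pairs).

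All genes were tested with edgeR 4.0.16 in R 4.3.3 (TMM, filterByExpr, quasi-likelihood F test, 1 coefficient per group, two-sided, Benjamini-Hochberg over all tested genes, adjusted p under 0.05 called) in 6 contrasts; SE is the absolute log2 fold change over the square root of F. DESeq2 1.42.0 was an alternative. Correlations and the comparison within length classes used log2 CPM with a prior count of 2. The edgeR fit was also run on simulated counts with the same relative spread for every gene, no length trend and no outlying library. These libraries differ in those respects, so that run does not bear on the calls reported here. All 9 listed genes are named, and up to 3 members of each pathway list with the smallest averaged p. The members and lists were chosen with earlier results of these data known.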

Additional observations from a re-analysis of the deposited data

How the results depend on the processing

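Between 18 and 19 alternatives were run for each value. Ankrd1's averaged knockout effect stayed positive in all 18 (1.69 to 2.29) and was called in 12. The number of the 9 genes called was 1 in the averaged KO comparison. It was 2 with DESeq2, 5 with no filter on low counts, 3 with the replicate block (Ankrd1, Ankrd2 at an adjusted p of 0.0437 and Fhl1 at 0.0193), 0 with the length class term, and 0 to 6 when each library was left out. On vehicle it was 0, but 2 with DESeq2, 6 with no filter, 1 with the replicate block, 1 with length offsets, 1 when scaled to cardiomyocyte markers, and 0 to 7 with libraries left out. Under ifetroban it was 0, but 1 with DESeq2, 3 with no filter, 1 with the 2 compared groups alone, 1 without the first replicates of KO vehicle and WT vehicle (the doubted libraries), and 0 to 1 with libraries left out. For ifetroban within KO it was 0, but 4 with no filter and 0 to 5 with libraries left out. The interaction gave 0, but 2 with no filter. In these cases the cause was not tested.

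Over all genes, the averaged comparison called 82, against 754 by DESeq2, 1684 with no filter, 531 with the replicate block, 142 with length offsets, 9 with the length class term, 578 when scaled to cardiomyocyte markers, 25 without both doubted libraries, and 2 to 2098 with libraries left out. On vehicle the count was 8, against 373, 1195, 45, 18, 1, 15, 2 and 1 to 1734 in the same order, and 5 with the 2 groups alone. Under ifetroban it was 2, against 69 by DESeq2, 428 with no filter, 12 with the 2 groups alone, 1 with the length class term, 14 without both doubted libraries and 1 to 8 with libraries left out. Within KO, ifetroban called 0 genes, against 3 by DESeq2, 428 with no filter and up to 449 with libraries left out.

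Without both doubted libraries the sign turned for Xirp1 (-0.41 on vehicle, -0.16 averaged), Nrap (-0.0065 and -0.023) and Fhl2 (0.20 and 0.11). With libraries left out, vehicle values ran from -0.081 to 1.03 for Csrp3, -0.27 to 1.99 for Xirp1, 0.04 to 0.50 for Nrap and -1.07 to -0.098 for Fhl2. Averaged values ran from -0.095 to 1.04 for Xirp1, -0.00038 to 0.23 for Nrap and -0.53 to -0.042 for Fhl2. Of 446 single values under alternatives, 389 kept direction and call, 40 gained a call, 6 lost one and 11 turned.

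Replicate numbers were not taken to pair the libraries. The difference of replicate 1 from replicate 2 correlated at 0.0011 to 0.46 between groups, above 0.1 in 3 of 6 pairs. Libraries correlated best with their own number in 23 of 24 comparisons. These comparisons are not independent, because in a group of 2 libraries the deviations from the group mean are exact opposites. A correlation barely above 0 then settles several of them. A fit that left 1 library in a group assumed that it varied like the others. Depth limits Ankrd2 in WT, at 8 to 21 reads.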
